A study of Mus musculus with 6 samples.

Results

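The type I interferon response was described through 39 interferon-stimulated genes in macrophages grown in culture from mouse bone marrow. Such cells are primary, non-transformed phagocytes. The genes are known targets of interferon, and the rule that picked them uses symbols and no measured value. All 39 were found among 56691 gene rows, and all 39 were among the 14856 genes abundant enough to be tested. The cells came from 3 mice, named a, b and c, and each mouse gave 1 RNA library per treatment. The 3 thiothixene libraries were from cells exposed on day 6 of culture to 2 µM thiothixene, an antipsychotic drug that blocks dopamine receptors, for 24 h. The 3 DMSO libraries were from cells of the same mice given the solvent. The labels name no interferon treatment or infection in either group, so the levels are described as basal ones. The sources used here give neither strain, sex nor age of the mice.

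Type I interferons bind the receptor IFNAR1/IFNAR2 and act through the kinases JAK1 and TYK2. These phosphorylate STAT proteins, of which STAT2 joins IRF9 in the complex ISGF3, and ISGF3 binds the interferon-stimulated response element near target genes. The targets include sensors of viral nucleic acid, direct antiviral effectors and factors such as IRF7 and USP18 that feed back on the pathway. Macrophages are known to keep a low interferon tone in culture without infection.

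Because ISGF3 reads a short repeated motif, the 250 bases before the start of each gene were searched for it in RefSeq's promoter windows (GRCm38.p6). The letters searched were GAAA, any 2 bases and GAAA again, with TTTC, any 2 bases and TTTC for the other strand. Windows existed for 29 of the 39 genes, and 14 of these (48.28%) held a match, against 3.46% of 27025 genes and 3.29% of 10283 tested genes with a window. The centre of the match nearest the start lay at a median of 65.5 bases before it, from 9 for Oas1a to 217 for Stat2. The 6 most abundant genes with a match are printed as stretches of 120 bases, read 5′ to 3′ on the gene's own strand, with the matched bases in capitals. They lie at chr8:71537532-71537651 (minus strand), chr7:104465194-104465313 (minus), chr5:120777670-120777789 (minus), chr10:128270248-128270367 (plus), chr5:120907526-120907645 (minus) and chr1:173942493-173942612 (minus). Those of Ifit3, at chr19:34583352-34583471 (plus), and Ifit3b, at chr19:34607748-34607867 (plus), were added after their values were seen, because these neighbours stood lowest in the comparison.
Bst2: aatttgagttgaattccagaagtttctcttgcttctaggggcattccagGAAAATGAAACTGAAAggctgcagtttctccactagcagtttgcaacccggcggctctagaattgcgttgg
Trim30a: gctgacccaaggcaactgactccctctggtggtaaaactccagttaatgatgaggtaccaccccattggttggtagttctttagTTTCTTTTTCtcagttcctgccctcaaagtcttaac
Oas3: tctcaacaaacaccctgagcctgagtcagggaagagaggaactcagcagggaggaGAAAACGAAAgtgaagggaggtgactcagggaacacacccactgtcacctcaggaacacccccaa
Stat2: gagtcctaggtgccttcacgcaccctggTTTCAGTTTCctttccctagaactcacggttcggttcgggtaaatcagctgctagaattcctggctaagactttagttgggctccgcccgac
Oas1a: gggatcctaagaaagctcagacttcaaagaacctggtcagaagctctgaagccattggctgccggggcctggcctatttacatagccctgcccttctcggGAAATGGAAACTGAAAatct
Ifi203: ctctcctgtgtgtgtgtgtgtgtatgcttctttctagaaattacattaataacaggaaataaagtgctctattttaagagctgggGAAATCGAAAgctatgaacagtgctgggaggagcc
Ifit3: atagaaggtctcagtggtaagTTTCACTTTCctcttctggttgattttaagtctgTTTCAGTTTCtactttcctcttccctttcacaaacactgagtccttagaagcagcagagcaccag
Ifit3b: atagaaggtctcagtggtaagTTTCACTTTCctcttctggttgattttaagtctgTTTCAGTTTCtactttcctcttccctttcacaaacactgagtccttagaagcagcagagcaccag
In Bst2 and Oas1a the repeat runs on, so that 2 matches overlap and merge into a single capital block. Ifit3 and Ifit3b carry 2 separate matches each, and their printed stretches are identical letter for letter. The 14 genes with a match had a median log2 fold change, thiothixene over DMSO, of -0.59 and the 15 without one -0.56. A match is a sequence feature and was not tested for binding.

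Levels were first set side by side per kilobase of exon, in CPM (counts scaled to library size with TMM factors) per kilobase. The 39 genes had a median of 13.6 CPM per kilobase with DMSO, against 5.92 over 14565 tested genes with a length. Bst2, which encodes tetherin, a membrane protein that holds budding virus at the cell surface, was the highest, at 193 ± 87.7 CPM per kilobase with thiothixene and 285 ± 257 with DMSO (SD, n = 3 each). Next by their DMSO means came Ifi27l2a, a small interferon-induced protein, at 111 ± 68.6 with thiothixene and 227 ± 208 with DMSO, and Ifitm3, which blocks fusion of viruses in endosomes, at 133 ± 74.3 with thiothixene and 193 ± 123 with DMSO. The lowest was Mx2, a dynamin-like GTPase, at 0.748 ± 0.384 with thiothixene and 1.504 ± 0.516 with DMSO. With the genes ordered by their DMSO mean, 2 of 38 neighbouring pairs differed by more than their pooled SD with DMSO. For the same pairs, counted in either direction, 15 of 38 did with thiothixene. Sorting on the DMSO means itself keeps the DMSO steps small, so these counts cannot be compared between the groups. The step below Ifitm3, to the PYHIN gene Ifi204, was beyond the spread in both groups.

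**Figure D1:**
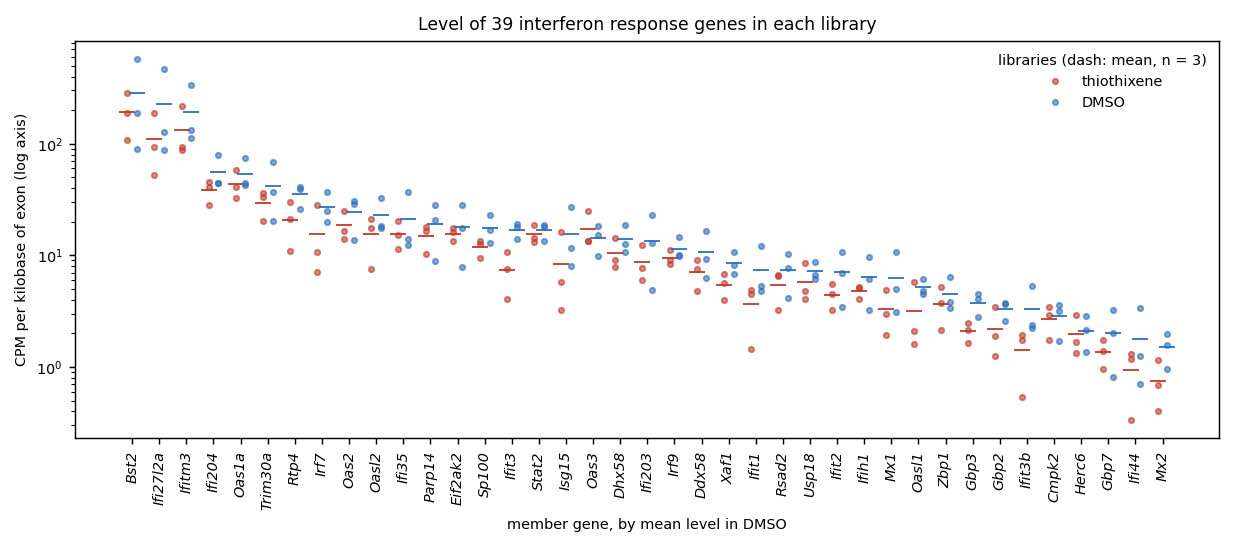
Level of the 39 genes in CPM per kilobase of exon (log axis), ordered by their mean with DMSO. Each point is a library, red for thiothixene and blue for DMSO, and each dash is a mean of 3 libraries; Bst2, Ifi27l2a and Ifitm3 stand above the rest and Mx2 is the lowest.

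The comparison of thiothixene with DMSO asked whether this basal programme differs after drug treatment. No gene of the 39 passed edgeR's quasi-likelihood test at an adjusted p of 0.05, and 0 of 14856 genes did (0% called). The adjusted p was 0.9998 for each of the 39. Unadjusted, 2 of the 39, Ifit3 and Gbp3, had p below 0.05 and were lower, against 0.841% of all genes, and 0 of the 39 had such a p and were higher, against 0.882%. DESeq2, limma-voom and limma-voom with library quality weights likewise called 0 of the 39. Over all genes they called 2, 0 and 25, and with quality weights 0.108% of all genes were called lower. The point estimates nonetheless lay almost all on the same side. The log2 fold change, thiothixene over DMSO, was below 0 for 38 of 39 genes, against 54.7% of all genes, and below -0.5 for 24, against 13.7%. Its median was -0.56, from -1.22 for Ifit3b to 0.26 for Oas3, against -0.04 over all tested genes. Without the DMSO library of mouse c the median was -0.33. These genes vary together between libraries, so they are not 39 separate observations. In bulk RNA, fewer cells expressing a gene and less of its RNA per cell cannot be told apart.

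**Figure D2:**
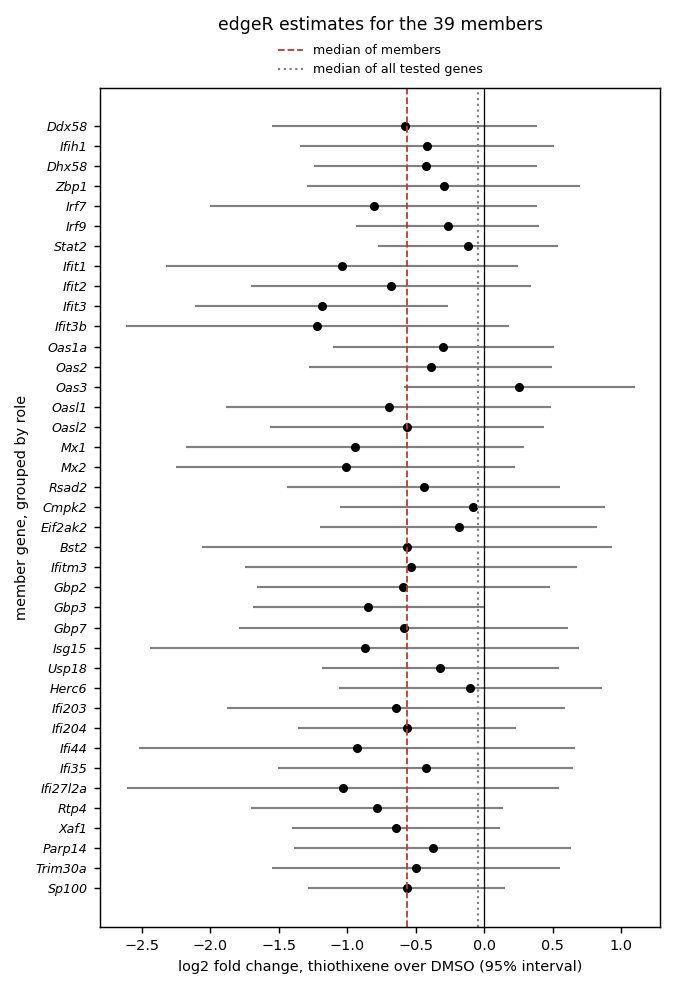
Log2 fold change, thiothixene over DMSO, of each gene in edgeR (points) with its 95% interval (lines), grouped by role. The dashed line is the median of the 39 genes, -0.56, and the dotted line that of all tested genes, -0.04; 38 points lie below 0, and only the intervals of Ifit3 and Gbp3 end below it.

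Within mice the picture was less even. The thiothixene library was lower than the DMSO library for 36 of the 39 genes in mouse a, 31 in mouse b and 26 in mouse c, against 52.1%, 49.4% and 48.1% of all genes. The median within-mouse difference in log2 CPM was -0.33 in mouse a, -0.92 in mouse b and -0.64 in mouse c, against -0.03, 0.01 and 0.05 over all genes. For 17 genes (43.6%) thiothixene was the lower library in all 3 mice, against 6.82% of all genes. They were Ddx58, all 4 IFIT genes, Oasl2, Mx1, Mx2, Rsad2, Gbp2, Gbp3, Usp18, Ifi44, Rtp4, Xaf1, Trim30a and Sp100. No gene of the 39 was higher in all 3 mice, against 7.49% of all genes. The 3 thiothixene libraries lay wholly below the 3 DMSO libraries for Ifit3, Ifit3b and Gbp3 (7.69%), against 2.77% of all genes, and wholly above them for none, against 3.88%. For 14 of the 39 genes (35.9%) the difference between group means in log2 CPM exceeded the pooled SD, against 19.7% of all genes.

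**Figure D3:**
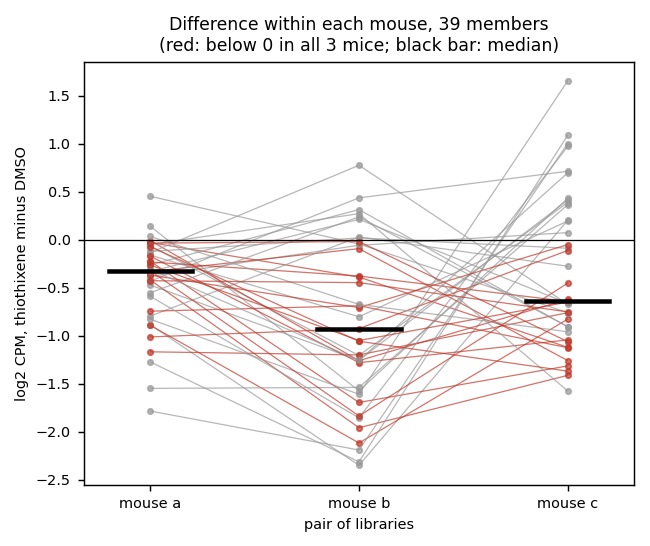
Difference in log2 CPM, thiothixene minus DMSO, of each of the 39 genes in each mouse, with lines joining a gene across mice. Red lines are the 17 genes below 0 in all 3 mice, and black bars are the medians, -0.33, -0.92 and -0.64 in mice a, b and c; the largest positive differences are in mouse c.

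The 4 IFIT genes, whose proteins bind viral RNA and block its translation, had the lowest median log2 fold change of any role group, -1.11, and all 4 were lower with thiothixene in all 3 mice. Ifit3 (ENSMUSG00000074896.4, chromosome 19, 34583531 to 34588731, plus strand, GRCm38) had 13.2, 7.09 and 18.7 CPM with thiothixene, against 24.5, 31.1 and 33.2 CPM with DMSO, for mice a, b and c as in every such list that follows. The groups did not overlap, and the widest gap within a mouse was in mouse b. Its log2 fold change was -1.19 (SE 0.40, 95% interval -2.11 to -0.27), with an unadjusted p of 0.0177 and an adjusted p of 0.9998 in edgeR. Ifit3b, its neighbour on the same strand (ENSMUSG00000062488.10, 34607970 to 34613401), had 3.51, 1.07 and 3.90 CPM with thiothixene, against 4.73, 4.47 and 10.5 CPM with DMSO, again without overlap. The log2 fold change of Ifit3b was -1.22 (SE 0.61), with an interval that includes 0. In transcript sequence, 31.7% of the 100-base words of Ifit3 also occur in Ifit3b and 27.4% of those of Ifit3b in Ifit3, so how reads were divided between them is uncertain.

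Ifit1, which binds RNA that lacks host-type cap methylation, had 12.1, 3.87 and 13.0 CPM with thiothixene, against 14.1, 12.7 and 32.5 CPM with DMSO. DMSO of mouse c stood high and thiothixene of mouse b low, and the other 4 libraries lay between 12.1 and 14.1 CPM. Its log2 fold change was -1.04 (SE 0.56). Ifit2, which also restricts translation of viral RNA, had 21.6, 12.8 and 17.7 CPM with thiothixene, against 27.2, 13.6 and 42.5 CPM with DMSO. The groups overlapped, because the DMSO library of mouse b was low, and the log2 fold change was -0.68 (SE 0.45).

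Of the 4 sensors, all had log2 fold changes below 0, with a median of -0.42, but only Ddx58 was lower in all 3 mice. Ddx58, which encodes RIG-I, the sensor of short viral RNA ends, had 64.1, 33.6 and 53.7 CPM with thiothixene, against 65.3, 44.0 and 117 CPM with DMSO. In mouse a the libraries were nearly level, and the high value was that of DMSO in mouse c. The log2 fold change was -0.58 (SE 0.42). Ifih1, which encodes MDA5, the sensor of long double-stranded RNA, had 41.5, 33.2 and 42.4 CPM with thiothixene, against 49.7, 26.7 and 79.4 CPM with DMSO. The DMSO libraries held both the lowest and the highest value. Dhx58 (LGP2, a regulator of those sensors) and Zbp1 (a sensor of Z-form nucleic acid) lay at -0.43 (SE 0.36) and -0.30 (SE 0.43) on the same scale.

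The 3 transcription factors had a median log2 fold change of -0.27, and none was lower in all 3 mice. Irf7, the factor that amplifies interferon production, had 40.4, 27.1 and 107 CPM with thiothixene, against 74.7, 138 and 93.3 CPM with DMSO. Mouse c ran the other way from mice a and b. The log2 fold change of Irf7 was -0.81 (SE 0.52). Stat2, the ISGF3 subunit, had 84.8, 77.3 and 112 CPM with thiothixene, against 110, 80.4 and 106 CPM with DMSO, a log2 fold change of -0.12 (SE 0.29, 95% interval -0.77 to 0.54). Irf9, the DNA-binding subunit of the same complex, was at -0.27 (SE 0.29). Stat2 and Irf9 thus differed by less than the spread between libraries.

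The OAS genes encode enzymes that make 2′-5′ oligoadenylates, which activate the ribonuclease RNase L, or enzyme-like relatives. Log2 fold changes were below 0 for 4 of 5, with a median of -0.39, and Oasl2 was the member lower in all 3 mice. Oasl2 had 111, 48.4 and 135 CPM with thiothixene, against 112, 116 and 208 CPM with DMSO. The libraries of mouse a were level, and the log2 fold change was -0.56 (SE 0.44). Oas3 was the exception among the 39 genes, with 95.5, 94.8 and 176 CPM with thiothixene, against 129, 70.0 and 107 CPM with DMSO. Mice b and c were higher with thiothixene and mouse a lower, and the log2 fold change of 0.26 (SE 0.37, 95% interval -0.58 to 1.10) lay within the spread. Oasl1, known in mouse as a negative regulator of Irf7 translation, had 4.23, 5.48 and 15.2 CPM with thiothixene, against 12.5, 16.1 and 11.8 CPM with DMSO. It was lower in mice a and b and higher in mouse c. Oas2 and Oas1a were at -0.39 (SE 0.39) and -0.30 (SE 0.35). Of the words of Oas1a, 40.9% also occur in Oas1g, so its level is uncertain.

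All 7 other direct antiviral effectors had log2 fold changes below 0, with a median of -0.53, and Mx1, Mx2 and Rsad2 were lower in all 3 mice. Mx2 had 2.47, 1.45 and 4.19 CPM with thiothixene, against 5.67, 3.46 and 7.17 CPM with DMSO. Each thiothixene library lay below its own mouse's DMSO library, with overlap between mice, and the log2 fold change was -1.01 (SE 0.54). Its relative Mx1, a nuclear protein in mouse that acts on influenza virus, was at -0.95 (SE 0.54), and Rsad2, which encodes viperin, at -0.44 (SE 0.43). Bst2 had 96.7, 171 and 255 CPM with thiothixene, against 172, 520 and 81.0 CPM with DMSO. It was lower in mice a and b and higher in mouse c, and the DMSO libraries held both extremes. Ifitm3 had 59.8, 62.8 and 149 CPM with thiothixene, against 89.99, 227 and 75.7 CPM with DMSO, again lower in mice a and b and higher in mouse c. Cmpk2, a mitochondrial nucleotide kinase whose gene neighbours Rsad2, was at -0.08 (SE 0.42), and Eif2ak2, which encodes the RNA-activated kinase PKR, at -0.19 (SE 0.44).

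The 3 guanylate-binding proteins, GTPases that coat pathogens and their vacuoles, had a median log2 fold change of -0.59. Gbp3 (ENSMUSG00000028268.15, chromosome 3, 142560026 to 142573209, plus strand) had 8.12, 5.37 and 7.05 CPM with thiothixene, against 9.16, 13.2 and 14.6 CPM with DMSO. The groups did not overlap, although the libraries of mouse a came close. Its log2 fold change was -0.85 (SE 0.37), with an unadjusted p of 0.0499 and an adjusted p of 0.9998 in edgeR. With the mouse as a replicate block its unadjusted p was 0.129. Gbp7 had 7.74, 5.42 and 9.72 CPM with thiothixene, against 11.4, 4.58 and 18.3 CPM with DMSO, and mouse b ran the other way. It shares 10.2% of its words with Gbp3 and another gene. Gbp2 was lower in all 3 mice, at -0.59 (SE 0.47).

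ISG15 is a ubiquitin-like protein, USP18 removes it from its targets and dampens receptor signalling, and HERC6 is its main ligase in mouse. Isg15 had 2.47, 4.40 and 12.2 CPM with thiothixene, against 8.75, 20.4 and 6.06 CPM with DMSO. The gene was lower in mice a and b and higher in mouse c, and the log2 fold change of -0.87 had an SE of 0.68. Usp18 had 13.3, 11.3 and 23.7 CPM with thiothixene, against 17.2, 18.5 and 24.6 CPM with DMSO. All 3 mice were lower, mouse c by little, and the log2 fold change was -0.32 (SE 0.38). Herc6 had 27.1, 12.3 and 15.6 CPM with thiothixene, against 19.8, 12.7 and 26.4 CPM with DMSO, a log2 fold change of -0.10 (SE 0.42). Here mouse a was higher with thiothixene. Of its words, 20.9% also occur in another annotated gene, which makes its level uncertain.

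The PYHIN genes Ifi203 and Ifi204 belong to a mouse family of nuclear and DNA-binding proteins on chromosome 1. Ifi203 had 83.4, 39.9 and 51.6 CPM with thiothixene, against 86.3, 33.1 and 154 CPM with DMSO. Ifi204 had 161, 100.1 and 146 CPM with thiothixene, against 157, 160 and 284 CPM with DMSO. For both, the DMSO library of mouse c stood well above the other libraries, and neither was lower in all 3 mice. Log2 fold changes were -0.64 (SE 0.54) and -0.56 (SE 0.35). Ifi204 shares 16.8% of its words with Ifi211, Mndal and Ifi207.

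The remaining 8 genes all had log2 fold changes below 0, with a median of -0.60, and Ifi44, Rtp4, Xaf1, Trim30a and Sp100 were lower in all 3 mice. Xaf1, a pro-apoptotic antagonist of XIAP, had 26.4, 18.5 and 32.01 CPM with thiothixene, against 31.7, 38.4 and 50.3 CPM with DMSO. The groups touched only at the thiothixene library of mouse c, and the log2 fold change was -0.65 (SE 0.33, 95% interval -1.40 to 0.11). Trim30a, which restrains NF-κB signalling in mouse, had 148, 83.3 and 136 CPM with thiothixene, against 151, 84.3 and 283 CPM with DMSO. The libraries of mice a and b were almost level, and the log2 fold change of -0.50 (SE 0.46) went with mouse c. Parp14, a mono-ADP-ribosyltransferase, had 152, 96.2 and 167 CPM with thiothixene, against 191, 83.0 and 264 CPM with DMSO. Mouse b ran the other way. Ifi27l2a had 24.4, 43.4 and 86.4 CPM with thiothixene, against 59.0, 216 and 40.6 CPM with DMSO, lower in mice a and b and higher in mouse c, as Bst2 and Isg15 were. Rtp4, a receptor-transporting protein, was at -0.78 (SE 0.40) and shares 11.2% of its words with another gene, Sp100, a nuclear-body protein, at -0.56 (SE 0.31), Ifi44 at -0.93 (SE 0.69) and Ifi35 at -0.43 (SE 0.47).

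Across the 6 libraries the genes fell into patterns set by single libraries. As deviations from each gene's own mean in log2 CPM, the median over the 39 genes was -0.17, -0.68 and 0.21 with thiothixene in mice a, b and c, against 0.17, 0.04 and 0.68 with DMSO. Thiothixene of mouse b was thus the lowest library and DMSO of mouse c the highest. The highest library was DMSO of mouse c for 25 genes and DMSO of mouse b for 11, and thiothixene of mouse c for Stat2 and Oas3 and of mouse a for Herc6. The lowest library was thiothixene of mouse b for 24 genes, thiothixene of mouse a for 6, DMSO of mouse b for 8 and DMSO of mouse c for 1. Of the variation of a gene over the libraries, a median of 21.2% went with treatment, 49.9% with the mouse and 18.4% with neither, against 8.22%, 40.8% and 44.7% over all genes. Each term takes a share of the variation even without an effect, and the mouse, with more levels than treatment, takes a larger one. These shares were not tested. The first principal component of the 39 genes held 55.3% of their variation.

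**Figure D4:**
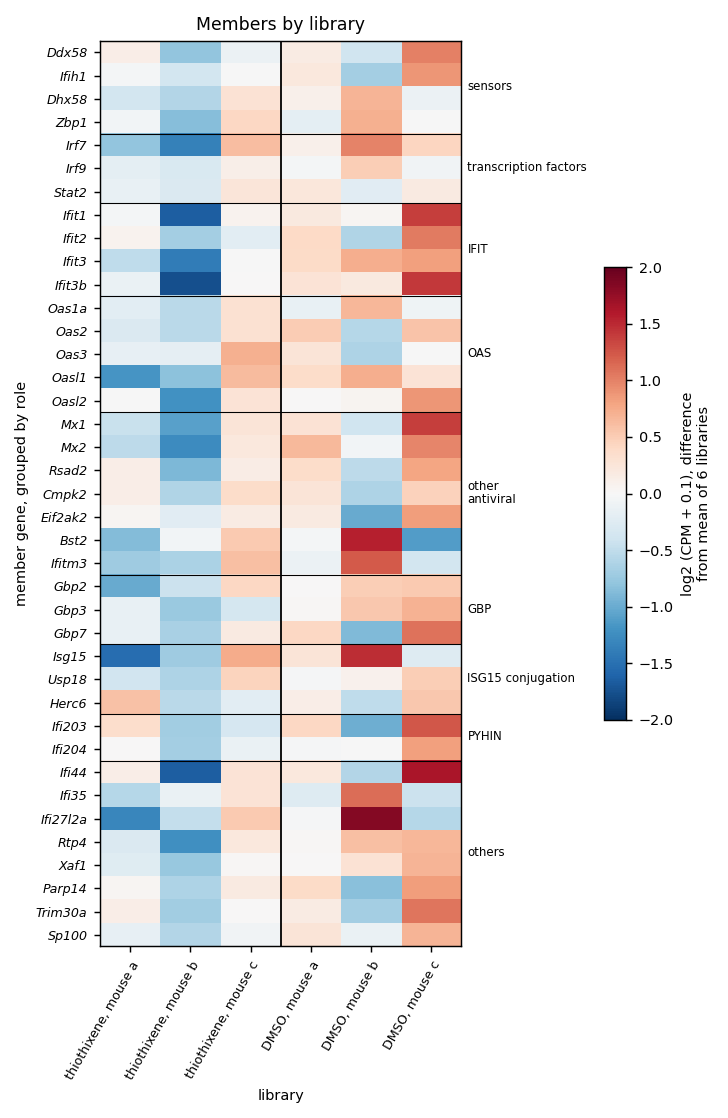
Deviation of each gene from its own mean over the 6 libraries in log2 (CPM + 0.1), red above and blue below, grouped by role, with the thiothixene libraries left of the DMSO libraries. Most rows are bluest in thiothixene of mouse b and reddest in DMSO of mouse c, and 11 rows, among them Bst2, Isg15 and Ifi27l2a, are reddest in DMSO of mouse b.

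The genes highest in DMSO of mouse b and those highest in DMSO of mouse c differed in base composition and length. The 11 genes highest in mouse b had a median GC content of 52.9% and a median exon length of 1885 bases. The 25 genes highest in mouse c had 45.8% and 4163 bases. Over the 39 genes, the within-mouse difference correlated with GC content at r = -0.56 in mouse a, -0.51 in mouse b and 0.83 in mouse c, and over 14565 tested genes at -0.43, -0.24 and 0.56. With log2 exon length it correlated at 0.57, 0.74 and -0.60 over the 39 genes, and at 0.13, 0.19 and -0.20 over the 14565. These are descriptions across genes that share the same pair of libraries. The sign change in mouse c is where Bst2, Isg15, Ifitm3 and Ifi27l2a, all short and GC-rich, were higher with thiothixene. When each library was corrected for length and GC content by offsets, 25 of the 39 genes (64.1%) were lower in all 3 mice, against 12.2% of all genes. The median within-mouse differences were then -0.35, -0.89 and -0.36, and the median log2 fold change was -0.54, against -0.08 over all genes. Then 38 were below 0, against 59.2% of all genes, and 5 were lower with an unadjusted p below 0.05, against 2.2%. The smallest adjusted p among the 39 in edgeR was then 0.978, so no call was made there either. With the offsets the correlation with GC content was -0.05, -0.25 and 0.34 in mice a, b and c, and that with log2 length was still 0.34, 0.60 and -0.36.

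**Figure D5:**
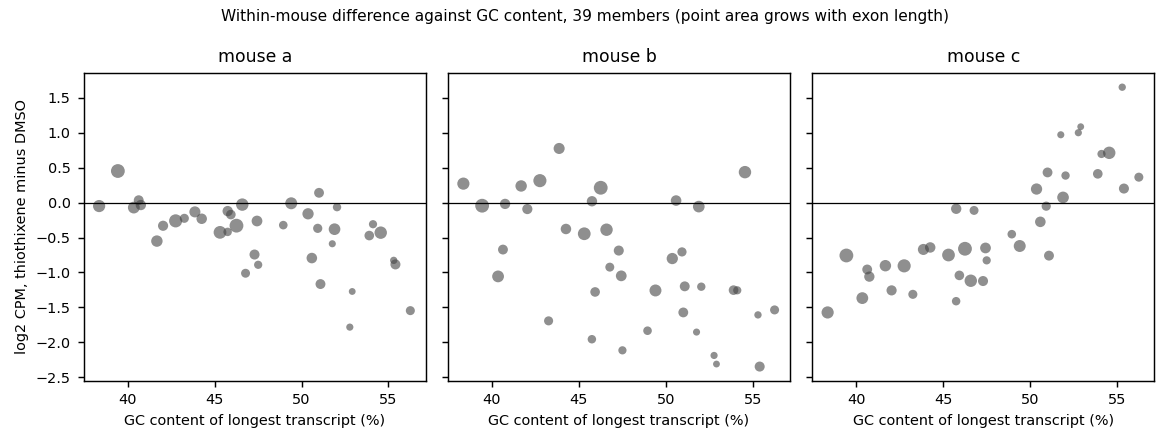
Within-mouse difference in log2 CPM, thiothixene minus DMSO, of the 39 genes against the GC content of the longest transcript (%), a panel per mouse, with point area growing with exon length. The points slope down in mice a and b (r = -0.56 and -0.51) and up in mouse c (r = 0.83).

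The libraries themselves differed in depth and in markers of cell type. Counts in genes were between 18548095 and 20264090 in the thiothixene libraries and between 10472349 and 22297520 in the DMSO libraries, with that of mouse b the thinnest. DMSO of mouse c, the highest library for 25 of the 39 genes, had the most counts but the fewest genes with a count, 16477, against 18546 to 19767 in the other libraries. Reads not aligned were 4.98% in thiothixene of mouse a and 4.52% in DMSO of mouse c, against 1.85% to 2.31% elsewhere. In limma-voom, library quality weights were 0.537, 6.23 and 2.75 with thiothixene and 2.28, 0.209 and 0.228 with DMSO in mice a, b and c. All 8 macrophage markers had counts, and their summed level was 9267 to 10681 CPM with thiothixene and 9044 to 18204 CPM with DMSO, highest in mouse b. The 8 neutrophil and precursor markers summed to 334 to 394 CPM with thiothixene and 365 to 848 CPM with DMSO, highest again in mouse b, the library in which 11 of the 39 genes were highest. The 4 monocyte markers summed to 27.3 to 38.6 CPM with thiothixene and 48.7 to 55.9 CPM with DMSO, so those groups did not overlap. The part of these markers and quality signs in the interferon genes' differences was not tested. Plasmacytoid dendritic cells, known as the main interferon producers, were represented by 6 of 8 markers with a sum of 76.8 to 83.6 CPM with thiothixene and 62.5 to 114 CPM with DMSO. Most of that sum was Tcf4, which other cell types also express, at 54.9 to 57.1 CPM with thiothixene and 39.3 to 85.9 CPM with DMSO. Their defining gene Siglech was at 0 in 4 libraries and at most 0.57 CPM, and Ly6d and Klk1 were at 0 in all 6. The 5 stromal markers reached 286 CPM in the thiothixene library of mouse c, against 54.3 to 164 CPM elsewhere. Of the other lists, conventional dendritic cell markers stayed at or below 4.69 CPM in sum, B cell markers at or below 8.70 with Ms4a1 at 0, T and NK cell markers at or below 0.937, and erythroid and mast cell markers at or below 1.12.

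The ligands of the pathway were almost all listed at 0. Of 20 interferon genes, 19, among them Ifnb1 and every Ifna gene listed, had 0 counts in all 6 libraries, and Ifnk had 1 count, in the thiothixene library of mouse b. A count of 0 allows up to 0.142 to 0.161 CPM in the thiothixene libraries and 0.128 to 0.335 CPM in the DMSO libraries (3 counts), for counting error only. Whether the counting or the annotation gave some of these zeros was not tested, and Myd88, an adaptor that macrophages normally express, is at 0 as well.

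Receptor, kinase and STAT genes lay on both sides of 0. All 14 were tested and none was called. Of these, 7 had log2 fold changes below 0, against 54.7% of all genes, and the median was -0.03. The most abundant were Jak1, a receptor kinase, at 0.07 (SE 0.34) and Ptpn6, the phosphatase SHP-1, at -0.18 (SE 0.32). Ifnar1 and Ifnar2, the receptor chains, were at -0.16 (SE 0.26) and -0.22 (SE 0.32). The receptor of the other interferon type, Ifngr1, had 109, 82.2 and 84.7 CPM with thiothixene, against 159, 145 and 149 CPM with DMSO. Of the 14 genes, only Ifngr1 had its thiothixene libraries wholly below the DMSO libraries, against 2.77% of all genes. It was singled out after its values were seen, and its log2 fold change of -0.71 (SE 0.26) had an unadjusted p of 0.0261 and an adjusted p of 0.9998 in edgeR. Of 20 genes of interferon induction 19 were tested, with 9 below 0, against 54.7% of all genes, and a median of 0.01. The most abundant were Trim25, the ubiquitin ligase of RIG-I, at 0.22 (SE 0.28) and Tlr7, the endosomal RNA receptor, at -0.19 (SE 0.40). Without thiothixene of mouse a and DMSO of mice b and c, Tlr7 was at -0.53, in a comparison that keeps a single DMSO library. With a library or mouse left out, Tlr7 ran from -0.50 to 0.28. The gene not tested was Myd88.

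Further interferon-stimulated genes outside the 39 were mostly below 0 as well. Of 62 listed, 61 were found and 49 tested; none was called, 44 of the 49 had log2 fold changes below 0, against 54.7% of all genes, and the median was -0.39. In all 3 mice 13 were lower, against 6.82% of all genes, and 0 higher, against 7.49%. The most abundant were Ly6e, a surface protein that limits coronavirus entry, at -0.70 (SE 0.37) and Lgals3bp, a secreted glycoprotein, at -0.18 (SE 0.34). Groups did not overlap for Gbp5, Slfn2, Cxcl10 and Phf11d, 4 of the 49, against 2.77% of all genes, and these were picked out for that reason. Cxcl10, the chemokine that attracts T cells, was near the limit of detection, with 0.190, 0.268 and 0.888 CPM with thiothixene, against 1.16, 1.56 and 2.22 CPM with DMSO. Slfn2, which keeps immune cells quiescent in mouse, had 107, 116 and 137 CPM with thiothixene, against 149, 261 and 138 CPM with DMSO, a log2 fold change of -0.61 (SE 0.33). Members of this list that are listed at 0 throughout were Ifi47, Igtp, Gbp4, Gbp6, Gbp9, Cxcl11 and Ifitm2.

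Without the 3 libraries that an earlier look at these data found to stand apart, thiothixene of mouse a and DMSO of mice b and c, 30 of the 39 genes had log2 fold changes below 0. That comparison keeps a single DMSO library, assumed to vary like the thiothixene libraries. It called Ifit2 at -0.83 (adjusted p = 0.0232) and Ifi203 at -0.91 (adjusted p = 0.00108) in edgeR, 2 of the 39, against 2.97% of all genes called lower. Bst2, Ifitm3, Ifi35, Ifi27l2a, Zbp1, Oas1a, Gbp2 and Usp18 then lay above 0. Without mouse c, with the mouse as a replicate block, Ifi27l2a was called at -1.79 (adjusted p = 0.0235) in edgeR. That was 1 of the 39, against 0.228% of all genes called lower. The mouse left out there was the one in which Ifi27l2a was higher with thiothixene. Single libraries also turned some signs. Without DMSO of mouse b, Zbp1, Oas1a, Bst2, Ifitm3, Ifi35 and Ifi27l2a lay above 0, and without DMSO of mouse c, Ifih1, Cmpk2, Eif2ak2, Herc6, Parp14 and Trim30a did. In each fit that left out 1 library or 1 mouse, 23 of the 39 genes stayed below 0, among them all 4 IFIT genes, and the other 16 lay above 0 in at least 1 of them.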

How the data were processed

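RNA of 6 libraries, 1 per mouse and treatment, was sequenced with paired-end reads, per the labels' protocols (Illumina). The deposited values are the authors' raw gene counts, as whole numbers; 5 rows naming no gene (51.19% to 53.42% of each library) were left out. Per the submitters' processing notes, STAR 2.7.11b, Trim Galore 0.6.10, DESeq2 1.44, FastQC 0.11.8 and the build mm10 were used; their roles are not stated. Neither the counting program nor its strand setting is given, so overlapping and antisense genes are not separated.

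Symbols, positions (GRCm38), exon lengths and GC content came from GENCODE M21; 52073 identifiers matched without version, 4618 (0.4% of gene counts) did not, and 35 matched with version, so the annotation release differed. Longest transcripts were searched for 100-base words found in other genes. Promoters came from RefSeq (GRCm38.p6).

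The test was edgeR 4.0.16 (R 4.3.3): robust quasi-likelihood, TMM, the default expression filter, treatment as sole term and Benjamini-Hochberg adjustment over all 14856 tested genes. CPM are scaled by TMM; log2 CPM use a prior count of 2. Spread is the SD over mice, which the labels call biological replicates, and the biological coefficient of variation was 46%. The procedure was also run on simulated counts. These were drawn independently for each gene and without length or GC effects, so that run cannot vouch for the test on these libraries. Alternatives were a replicate block, RLE, other filters, DESeq2 1.42.0, limma-voom (3.58.1) with and without quality weights, offsets for length and GC content (5-degree-of-freedom splines), and leaving out libraries or mice.

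The members, lists, tests and alternatives were chosen with earlier results of these data known. Within each role, values by library were given for the 2 members of highest mean CPM, that of smallest p and any called in an alternative; Ifit1 and Ifit3b were added after their values were seen. From each pathway list the 2 most abundant tested genes were named, and others as stated; some listed genes are not reported here.

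The letter in the titles names the mouse, so the letters pair the libraries. Deviations from group means correlated at -0.131, 0.318 and -0.301 in mice a, b and c. Between libraries of different letters the values ran from -0.411 (thiothixene of mouse a with DMSO of mouse b) to 0.486 (thiothixene of mouse a with DMSO of mouse c). The highest value was thus between different letters, so the pairing rests on the titles and is not seen in these correlations. Limits from a count of 0 cover counting error only.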

Additional observations from a re-analysis of the deposited data

How the results depend on the processing

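The median log2 fold change of the 39 genes stayed below 0 in each of 20 alternatives, from -0.70 (without thiothixene of mouse c) to -0.33 (without DMSO of mouse c) when a library or mouse was left out, and the number of genes below 0 was then 32 to 38. Over all genes, calls were 0 with edgeR, 1 without a low-count filter, 2 with DESeq2, 1 with DESeq2 and the replicate block, 25 with quality weights, 1105 without the 3 libraries that stand apart and 0 to 45 with a library or mouse left out, the 45 without mouse c. Of the 39 genes, 2 were called without the 3 libraries and 0 to 1 with a library or mouse left out. The replicate block, with the mice as pairs, called 0 of the 39 and changed no call. The direction turned with quality weights for Oas3 (-0.098), Bst2 (0.092), Ifi35 (0.16) and Jak1 (-0.078). Without the 3 libraries it turned for Zbp1 (0.13), Oas1a (0.098), Bst2 (0.32), Ifitm3 (0.24), Gbp2 (0.054), Usp18 (0.036), Ifi35 (0.35), Ifi27l2a (0.15), Jak1 (-0.14) and Trim25 (-0.012). With a library or mouse left out, the ranges that cross 0 were Bst2 -1.21 to 0.47, Cmpk2 -0.34 to 0.16, Eif2ak2 -0.54 to 0.33, Herc6 -0.49 to 0.22, Ifi203 -1.04 to 0.12, Ifi27l2a -1.79 to 0.050, Ifi35 -0.78 to 0.24, Ifih1 -0.73 to 0.032, Ifitm3 -1.21 to 0.19, Irf9 -0.47 to 0.013, Jak1 -0.19 to 0.45, Lgals3bp -0.64 to 0.15, Oas1a -0.62 to 0.16, Oas3 -0.094 to 0.58, Parp14 -0.72 to 0.013, Ptpn6 -0.42 to 0.079, Stat2 -0.28 to 0.011, Tlr7 -0.50 to 0.28, Trim30a -0.83 to 0.052 and Zbp1 -0.70 to 0.28. The cause of these turns was not tested. Depth limits genes of few counts, such as Cxcl10, with 4 counts under thiothixene in mouse a. The SEs of the 39 log2 fold changes ran from 0.29 to 0.69.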
